A study of Mus musculus with 59 samples.

Results

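Microglia are the brain's own macrophages, and the transcripts of wild-type mouse microglia in primary culture were compared between cultures given lipopolysaccharide (LPS) and untreated cultures. Libraries were chosen by their sample titles, which gave 5 LPS libraries (replicates 1 to 5) and 4 untreated libraries (replicates 1 to 4), or 9 of the 59 libraries of the series. Per the labels, cells were grown from the brains of pups at P0 or P1, kept 16 h in culture after purification, and changed to plain medium (untreated, UT) or medium holding LPS at 100 ng/mL for 24 h, in medium with serum and β-mercaptoethanol in both groups. Both groups were Tbk1fl/fl, Cx3CR1-Cre-: they carried floxed Tbk1 alleles and no Cre recombinase, so the wild type here is a floxed line and not an unmodified strain. The strain background and the number of pups in a culture are not given in the sources used here. HET (Tbk1fl/+, Cx3CR1-Cre+) and KO (Tbk1fl/fl, Cx3CR1-Cre+) cultures, given the same LPS, are compared with the wild type only at the end. Their libraries also enter the choice of genes to test, the scalings other than TPM and the shared estimate of the spread. The same holds for libraries of WT, HET and KO cultures given interleukin-4, which are not compared here. The design text speaks of independent cultures for the replicates and does not say that a replicate number joins an untreated and an LPS library of the same culture, so the groups were compared unpaired.

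LPS is a component of the outer membrane of Gram-negative bacteria. It is passed by CD14 to TLR4 and its partner MD-2, and TLR4 then signals from the cell surface through the adaptors TIRAP and MyD88 and from endosomes through TRAM and TRIF. The first route activates NF-kB and the MAP kinases, which drive genes of inflammatory cytokines, and the second activates the kinases TBK1 and IKKε, IRF3 and the type I interferon genes, whose product acts back on the cells. In microglia LPS is widely used to produce an inflammatory state, in which transcripts that mark the resting cell are known to fall.

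Expression was given as TPM, a share of the transcript pool after division by gene length. Of 32070 genes in the table, 15908 had at least 1 TPM in at least 4 of the 44 libraries of the same table and were tested with limma on log2(TPM + 1). A log2 difference below is the LPS mean minus the untreated mean on that scale, given with its SE, which understates the change of genes near 0, and the adjusted p is limma's over all genes tested. The untreated libraries held 14116 to 14502 genes with at least 1 TPM and the LPS libraries 12616 to 13432. The depth of the libraries is unknown, because TPM keeps none. The 50 most abundant genes took 24.1 to 30.0% of the summed TPM untreated and 31.5 to 35.4% with LPS. That share counts all genes, while ranks by mean TPM below leave out the 22 transcripts of the mitochondrial genome. Since TPM values are shares, the rise of abundant genes lowers all other values, and the median difference over all genes was -0.59 on the TPM scale, -0.06 after median-of-ratios scaling and -0.13 after quantile normalization. For this reason a gene is said to have risen or fallen only where it was called (adjusted p under 0.05) in the same direction under all 3 scalings. A gene said not to have passed the test missed it on the TPM scale; of those named below, Tlr4, Ikbkb, Ikbkg, Rela, Stat3, Atf3, Csf1, Il10ra, Il1r1, Tlr7, Ripk1, Tyms, E2f1, Mt2 and Pf4 were called higher after median-of-ratios scaling.

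Microglial identity was checked with 10 marker genes, all of which were measured, with a summed level of 8055 to 9276 TPM untreated and 2347 to 3136 TPM with LPS. Markers of oligodendrocytes, astrocytes and neurons were also present, and their summed levels were lower in the LPS libraries. Vascular and stromal markers overlapped, with sums of 5.58 to 18.7 TPM untreated and 7.9 to 10.6 TPM with LPS. Of their 8 tested members 3 rose and 0 fell under all 3 scalings. The 12 oligodendrocyte-lineage markers summed to 2621, 1095, 1897 and 1772 TPM in untreated replicates 1 to 4 and to 912, 294, 489, 571 and 199 TPM in LPS replicates 1 to 5. The 9 astrocyte markers measured summed to 189 to 336 TPM untreated and 59.3 to 116 TPM with LPS, and the 10 neuronal markers to 176 to 322 and 46.9 to 128 TPM. Of the monocyte and neutrophil markers 3 of 8 were measured, among them S100a8, which went from 2.55 to 88.1 TPM, while others, such as Ly6g, Cxcr2 and Plac8, did not reach the level for testing. None of the 8 lymphocyte markers reached that level. In bulk libraries fewer cells of a type and less RNA per cell cannot be told apart, and the part of these other cells in the results below was not tested. Untreated replicate 2 had the lowest oligodendrocyte and astrocyte sums of its group, LPS replicate 1 the highest oligodendrocyte sum and LPS replicate 5 the lowest. Without untreated replicate 2, 2123 genes were called higher and 9766 lower on the TPM scale, without LPS replicate 1 2129 and 9935, and without LPS replicate 5 2192 and 9374, against 2210 and 9854 with all libraries.

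A large share of the measured genes differed between LPS and untreated cultures. Genes of cytokines, chemokines, interferon responses, antigen presentation on MHC class I and glycolysis rose, and genes of the resting microglial state, cholesterol synthesis and cell division fell. On the TPM scale 2210 genes (13.9% of those tested) were called higher with LPS and 9854 (61.9%) lower. The split depended on the scaling: 5024 were higher and 5139 lower after median-of-ratios scaling, and 904 genes were called in opposite directions by these scales. Under all 3 scalings 2194 genes rose (13.8%) and 4341 fell (27.3%), and the counts for gene lists below are read against these shares. The shares of falling members in the lists of cytokine receptors, chemoattractant receptors, ion channels and purinergic signalling were near that of all genes. The rises reached further than the falls. Among genes changed under all 3 scalings, 545 rose and 207 fell at least 4-fold on both the TPM and the median-of-ratios scale, and 183 against 21 passed 16-fold. The LPS and untreated libraries did not overlap for 10311 genes (64.8%) on the TPM scale. Set side by side by replicate number 1 to 4, 2100 of the genes that rose were higher with LPS in 4 of 4 such pairs, and 4319 of those that fell were lower in 4 of 4. These genes were called on the same libraries, so the counts are a description and not a test.

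**Figure D1:**
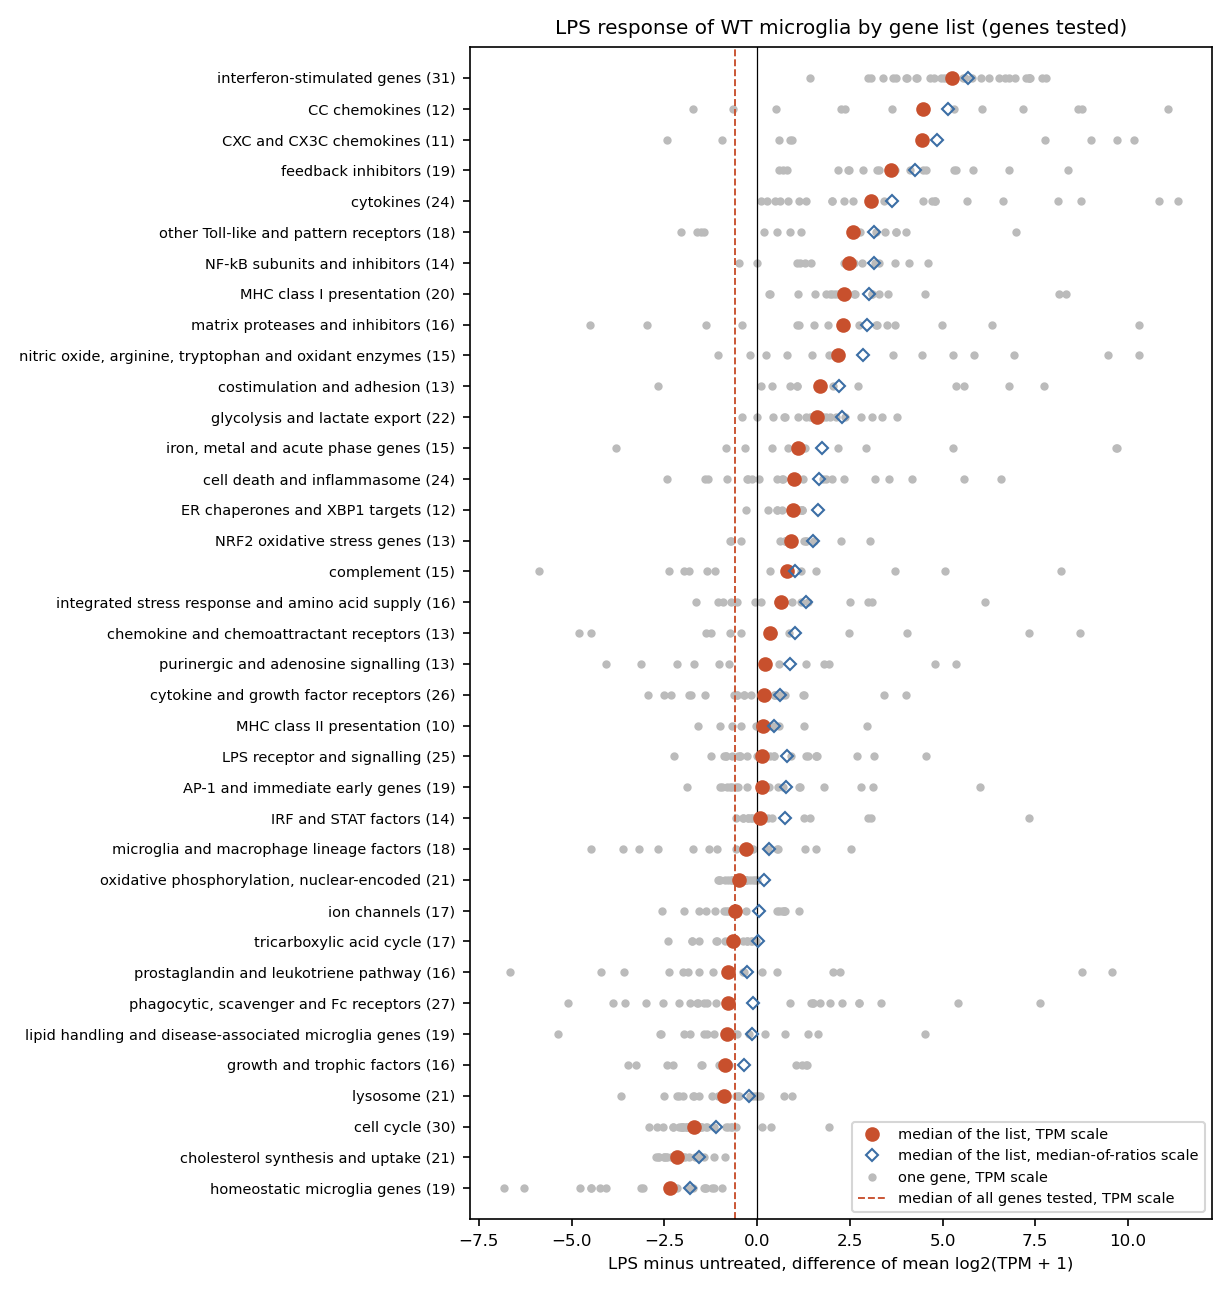
Median log2 difference (LPS minus untreated) of the members of each gene list on the TPM scale and after median-of-ratios scaling, with the measured members as points and the median of all tested genes as a dashed line. Interferon-stimulated genes have the highest median on the TPM scale, 5.26, and homeostatic microglia genes the lowest, -2.35.

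The LPS receptor and the kinases below it were measured first, since they carry the signal. Accessory proteins of the receptor rose, the receptor gene itself did not pass the test on the TPM scale, and the kinases of the interferon branch rose. Tlr4 (Entrez 21898, chr4:66827551-66846581 in GRCm38.p6) was 28.8, 32.1, 26.7 and 27.8 TPM in untreated replicates 1 to 4 and 24.5, 30.2, 28.4, 35.9 and 33.7 TPM in LPS replicates 1 to 5. The groups overlapped, and the log2 difference was 0.07 ± 0.22 (adjusted p = 0.773) on the TPM scale and 0.73 (adjusted p = 0.0130) after median-of-ratios scaling, so the call on Tlr4 depended on the scale. Cd14, whose product hands LPS to the receptor, was 456, 413, 354 and 354 TPM in untreated replicates 1 to 4 and 1829.6, 2539, 2582, 2726 and 3152 TPM in LPS replicates 1 to 5. Every LPS library lay above every untreated library (Cd14 log2 difference 2.69 ± 0.24, adjusted p = 1.40e-12). Ly96, which encodes MD-2, rose from 21.0 to 56.1 TPM on average (log2 difference 1.38 ± 0.14). The receptor pair that resembles TLR4 and MD-2, RP105 and MD-1, was lower on the TPM scale: Ly86, the MD-1 gene, fell from 635 to 135 TPM (log2 difference -2.23 ± 0.15), and Cd180, the RP105 gene, had a log2 difference of -0.68 that was not called under all scalings.

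Among the adaptors, Myd88 rose by 1.62 and Ticam2, the gene of TRAM, by 1.32 on the log2 scale, with smaller rises of Tirap (0.46) and Ticam1, the gene of TRIF (0.46). The IRAK kinases, which bind MyD88, moved apart. Irak3, which encodes a member without kinase activity that restrains the pathway, was 6.83, 8.75, 5.62 and 7.31 TPM in untreated replicates 1 to 4 and 208, 189, 198, 200.4 and 153 TPM in LPS replicates 1 to 5. No untreated library reached the lowest LPS library of Irak3 (log2 difference 4.56 ± 0.11, adjusted p = 1.36e-30). Irak2 rose by 1.59, while Irak1 was at -0.83 and Irak4 at -0.46 on the TPM scale; Irak1 was called lower there and with quantile normalization and Irak4 on the TPM scale alone, and after median-of-ratios scaling they stood at -0.16 and 0.20. Traf3 rose by 0.34. Traf6 was -0.46 on the TPM scale and 0.19 after median-of-ratios scaling. Of the TAK1 kinase and its binding partners, Tab1 fell by 1.25, Map3k7 was -0.83 and Tab3 -0.90 on the TPM scale, and neither was called after median-of-ratios scaling. Tab2 was -0.51 on the TPM scale and 0.17 after median-of-ratios scaling.

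Tbk1, the gene of the kinase of the interferon branch, was 45.3, 53.8, 45.1 and 46.0 TPM in untreated replicates 1 to 4 and 81.9, 98.2, 87.2, 85.9 and 101 TPM in LPS replicates 1 to 5. The groups did not overlap (Tbk1 log2 difference 0.92 ± 0.15, adjusted p = 1.04e-06). Ikbke, the gene of the related kinase IKKε, was 17.3, 39.5, 14.7 and 18.6 TPM in untreated replicates 1 to 4 and 242, 207, 170.2, 181 and 172 TPM in LPS replicates 1 to 5. Untreated replicate 2 was the highest of its group and below all LPS libraries (log2 difference 3.15 ± 0.22, adjusted p = 8.99e-16). Map3k8, the gene of the kinase TPL2 that links the pathway to ERK, rose from 10.0 to 31.5 TPM (log2 difference 1.58 ± 0.14). The 3 genes of the canonical IKK complex did not rise on the TPM scale: Ikbkb was 0.00 ± 0.11 (adjusted p = 0.982), Ikbkg 0.14 ± 0.22 (adjusted p = 0.566) and Chuk -0.27 ± 0.10, which turned to 0.39 after median-of-ratios scaling. In all, 12 of the 25 members of this list rose and 2 fell under all 3 scalings, with a median of 0.14 on the TPM scale and 0.80 after median-of-ratios scaling.

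**Figure D2:**
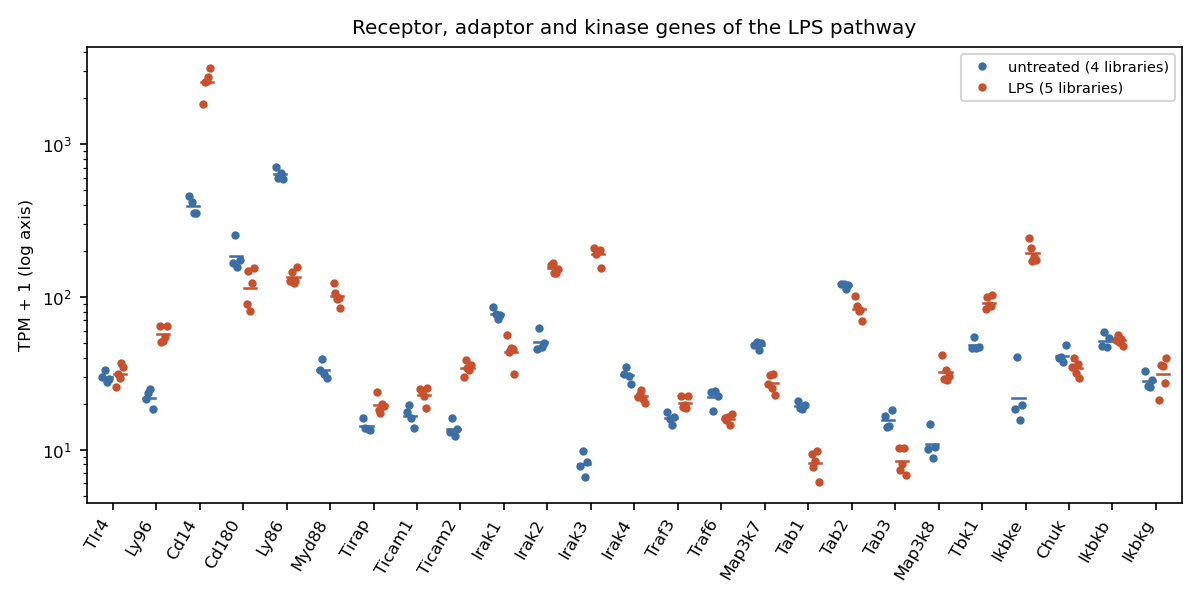
TPM (log axis) of the 25 genes of LPS recognition and signalling in each library, with 4 untreated and 5 LPS libraries as points. Cd14, Irak3, Ikbke and Tbk1 have every LPS library above every untreated library, and Tlr4 overlaps.

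NF-kB is a dimer of Rel-family subunits held in the cytoplasm by IκB proteins, and it induces genes of its own inhibitors, which end the signal. Of 14 measured genes of the subunits and inhibitors 12 rose and 0 fell, with a median of 2.48. The largest differences were those of inhibitors and of nuclear IκB proteins. Nfkbia, the IκBα gene, was 54.7, 64.5, 48.1 and 48.9 TPM in untreated replicates 1 to 4 and 549.99, 517, 584, 506 and 526 TPM in LPS replicates 1 to 5. LPS libraries of Nfkbia all lay above the untreated ones (log2 difference 3.30 ± 0.13, adjusted p = 3.79e-24). Nfkbiz, which encodes the nuclear IκBζ, rose by 4.10 ± 0.11, Tnip3 by 4.62 ± 0.28 and Tnfaip3, the gene of the ubiquitin-editing enzyme A20, by 3.71 ± 0.15 on the log2 scale. Among the subunits Nfkb2 rose by 2.62 ± 0.13, Nfkb1 by 1.45 ± 0.10, Relb by 1.16 ± 0.14 and Rel by 1.09 ± 0.12. Rela, the subunit with the transactivation domain of the classical dimer, had 77.4 ± 6.10 TPM untreated and 76.9 ± 6.44 TPM with LPS (log2 difference -0.01 ± 0.10, adjusted p = 0.934).

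All 19 measured feedback inhibitors rose, with a median of 3.60; 3 of them (Irak3, Tnfaip3 and Nfkbia) are described above and also belong to the other lists. Il1rn, which encodes the antagonist of the interleukin-1 receptor, was 5.00, 4.83, 2.33 and 3.79 TPM in untreated replicates 1 to 4 and 1450.1, 1444, 1627, 1451 and 2347 TPM in LPS replicates 1 to 5. The lowest LPS library stood far above the highest untreated library for Il1rn (log2 difference 8.39 ± 0.33, adjusted p = 1.42e-23). Usp18, whose product restrains the interferon receptor, rose from 2.67 to 396 TPM, Socs3, an inhibitor of cytokine receptor signalling, from 9.47 to 588 TPM, and Cd274, the PD-L1 gene, from 7.58 to 357 TPM. Dusp2, a phosphatase of MAP kinases, rose by 5.30 ± 0.31. Il10, the gene of an anti-inflammatory cytokine, was 0, 0, 0.0830 and 0.111 TPM in untreated replicates 1 to 4 and 29.7, 22.2, 24.6, 15.4 and 21.4 TPM in LPS replicates 1 to 5. It was under 1 TPM in all untreated libraries. Zc3h12a, which encodes the RNase Regnase-1, rose by 3.60 ± 0.16, whereas the rise of Zfp36, which encodes another protein that destabilises cytokine mRNA, was 0.60 ± 0.20.

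Immediate early genes and AP-1 factors, which respond within the first hours of a stimulus, were divided at 24 h: 8 of 19 rose and 1 fell. Ier3 rose from 12.4 to 872 TPM (log2 difference 6.00 ± 0.25), Fosl1 from 0.482 to 12.0 TPM, Maff from 3.73 to 32.0 TPM and Junb from 87.0 to 306 TPM. Fosl1, Junb and Maff encode transcription factors with a leucine zipper, and Ier3 a regulator of cell survival. The only member that fell was Myc, a growth regulator, from 99.7 to 29.8 TPM (log2 difference -1.88 ± 0.30). Atf3 did not pass the test at 0.57 ± 0.28 (adjusted p = 0.0633).

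The cytokine genes included some of the largest differences of the data. Of 24 measured, 21 rose and 0 fell, with a median of 3.08. Il1a (Entrez 16175, chr2:129299609-129310186), the gene of interleukin-1α, had the largest difference of the named genes and was 1.02, 2.73, 1.97 and 2.11 TPM in untreated replicates 1 to 4 and 3859.8, 5969, 8597, 10063 and 12449 TPM in LPS replicates 1 to 5. No LPS library came near the untreated range (Il1a log2 difference 11.36 ± 0.37, adjusted p = 4.32e-26). Il1b (chr2:129364569-129371164), the gene of interleukin-1β, was 42.1, 27.2, 40.4 and 17.7 TPM in untreated replicates 1 to 4 and 7961, 12169, 14271, 15610.3 and 18279.9 TPM in LPS replicates 1 to 5. It reached rank 4 by mean TPM with LPS, from rank 5200 untreated (Il1b log2 difference 8.72 ± 0.61, adjusted p = 8.72e-16). Il6 (Entrez 16193, chr5:30013114-30019975), which encodes interleukin-6, was listed at 0 in all 4 untreated libraries and at 929.8, 1567, 2297, 1930.5 and 3159 TPM in LPS replicates 1 to 5 (adjusted p = 1.59e-25). Because no untreated library had a value above 0, no fold change is given for Il6.

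Tnf, the gene of tumour necrosis factor, was 6.60, 14.2, 4.68 and 6.42 TPM in untreated replicates 1 to 4 and 689, 680.4, 797, 898 and 1133 TPM in LPS replicates 1 to 5. Untreated replicate 2 was the highest of the untreated libraries and still far under the LPS libraries (Tnf log2 difference 6.63 ± 0.24, adjusted p = 1.05e-24). Csf3, which encodes the granulocyte colony-stimulating factor G-CSF, rose from 0.0785 to 319 TPM (log2 difference 8.13 ± 0.26), and Csf2, the GM-CSF gene, was listed at 0 in all untreated libraries and at 26.4, 11.3, 38.6, 31.9 and 36.4 TPM with LPS. Il12b, the shared subunit of interleukins 12 and 23, was likewise listed at 0 untreated and at 14.3, 70.4, 49.4, 51.9 and 117 TPM with LPS. The specific subunits also rose, to lower levels: Il12a from 0.0238 to 3.30 TPM (log2 difference 2.02 ± 0.27) and Il23a from 0.0823 to 0.683 TPM (log2 difference 0.63 ± 0.24). Il27 rose from 0.292 to 34.8 TPM, Il19 from 0.0470 to 28.4 TPM and Il15 from 6.28 to 63.7 TPM. Csf1, whose product keeps microglia alive, had 13.1 ± 3.45 TPM untreated and 14.0 ± 1.74 TPM with LPS (log2 difference 0.12 ± 0.27, adjusted p = 0.697), and Il33 was 0.49 ± 0.41 (adjusted p = 0.281). Tgfb1, the gene of a cytokine that maintains the resting state of microglia, was called on the TPM scale (0.26 ± 0.10) but not under all 3 scalings.

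Of the CC chemokine genes, which attract monocytes and T cells, 9 of 12 rose and 1 fell, with a median of 4.47. Ccl5 (Entrez 20304, chr11:83525778-83530518) was 4.08, 6.54, 7.74 and 2.71 TPM in untreated replicates 1 to 4 and 10860.1, 13704, 12064, 12800.1 and 15679 TPM in LPS replicates 1 to 5. Its rank by mean TPM moved from 11107 to 6 (Ccl5 log2 difference 11.09 ± 0.45, adjusted p = 3.40e-23). Ccl3 rose from 139.96 to 9452 TPM, Ccl2, the main monocyte attractant, from 5.60 to 2967 TPM, Ccl7 from 0.621 to 637 TPM and Ccl12 from 3.43 to 596 TPM. Ccl24, an eosinophil attractant, fell from 3.06 to 0.124 TPM (log2 difference -1.72 ± 0.33). Ccl17 stayed under 1 TPM on average (0.624 TPM with LPS, adjusted p = 0.431).

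The CXC chemokine genes with a neutrophil-attracting product lie close together on mouse chromosome 5: Cxcl3 at chr5:90786101-90788093, Cxcl1 at chr5:90891245-90893121 and Cxcl2 at chr5:90903899-90905938 (GRCm38.p6). All 3 rose. Cxcl2 was 1.55, 5.81, 2.36 and 0.654 TPM in untreated replicates 1 to 4 and 1356, 3831, 4321, 4188 and 6142 TPM in LPS replicates 1 to 5 (log2 difference 10.15 ± 0.42). Cxcl3 was 0, 1.31, 0.621 and 0 TPM in untreated replicates 1 to 4 and 317, 1476, 1679.996, 1649 and 1677 TPM in LPS replicates 1 to 5 (log2 difference 9.71 ± 0.44). Cxcl1 was 0.313, 0.304, 0.279 and 0 TPM in untreated replicates 1 to 4 and 52.9, 370.3, 384, 265 and 611 TPM in LPS replicates 1 to 5 (log2 difference 7.76 ± 0.44). LPS replicate 1 was the lowest of its group for all 3, and still above every untreated library. Cxcl10, an interferon-induced attractant of T cells, rose from 2.50 to 1676 TPM (log2 difference 9.02 ± 0.56), and Cxcl9 and Cxcl11, which bind the same receptor, from 0.116 to 23.8 TPM and 0.0245 to 23.7 TPM. Cxcl14 fell from 106 to 19.2 TPM, and Cx3cl1, the ligand of the microglial receptor Cx3cr1, was at -0.94, called on the TPM scale only. In this list 8 of 11 rose and 1 fell.

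Promoter sequences were searched because members of the cytokine, chemokine and interferon lists rose together. The RefSeq promoter table (GRCm38.p6, 250 bases before to 50 after each start) held 10827 of the 15908 tested genes, of which 2233 had several starts. An NF-kB type motif, GGGNNTTTCC, and an interferon response (ISRE) type motif, GAAANNGAAA, were searched on both strands. The first was found in 2.1% of the genes with a promoter, in 4.58% of the 393 at least 4-fold higher on the TPM scale and in 2.4% of the 375 at least 4-fold lower. By list, it was in 5 of 11 genes of NF-kB subunits and inhibitors, 4 of 16 feedback inhibitors, 3 of 8 CXC and CX3C chemokines, 2 of 17 cytokines and 0 of 12 homeostatic genes. Among the searched inflammatory and interferon lists, the 3 matching genes with the largest differences were Il6, Cxcl2 and Cxcl3, and the 250 bases before their starts are shown 5′ to 3′ with the match in capitals. A match is a description of these letters and not a measured binding site.
Il6, chr5:30012864-30013113, plus strand: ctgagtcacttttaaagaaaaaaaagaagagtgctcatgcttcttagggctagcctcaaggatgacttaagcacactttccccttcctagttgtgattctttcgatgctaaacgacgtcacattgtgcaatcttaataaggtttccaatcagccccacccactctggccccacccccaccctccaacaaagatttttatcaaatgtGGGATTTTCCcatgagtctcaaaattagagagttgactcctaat
Cxcl2, chr5:90903649-90903898, plus strand: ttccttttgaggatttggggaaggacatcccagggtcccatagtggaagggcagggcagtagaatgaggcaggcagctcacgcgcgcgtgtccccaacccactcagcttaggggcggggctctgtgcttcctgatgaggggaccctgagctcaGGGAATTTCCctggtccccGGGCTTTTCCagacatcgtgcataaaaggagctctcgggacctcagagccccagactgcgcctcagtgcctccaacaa
Cxcl3, chr5:90785851-90786100, plus strand: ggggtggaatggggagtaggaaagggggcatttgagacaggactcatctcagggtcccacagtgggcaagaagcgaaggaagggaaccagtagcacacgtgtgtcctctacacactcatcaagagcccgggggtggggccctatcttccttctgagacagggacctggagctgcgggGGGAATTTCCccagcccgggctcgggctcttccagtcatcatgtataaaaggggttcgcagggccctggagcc
Counted from the start, the Il6 match spans bases -44 to -35 and the Cxcl3 match -73 to -64, while Cxcl2 holds a pair of matches at -97 to -88 and -78 to -69. The match of Cxcl3 and the more distant match of Cxcl2 have the same 10 letters.

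**Figure D3:**
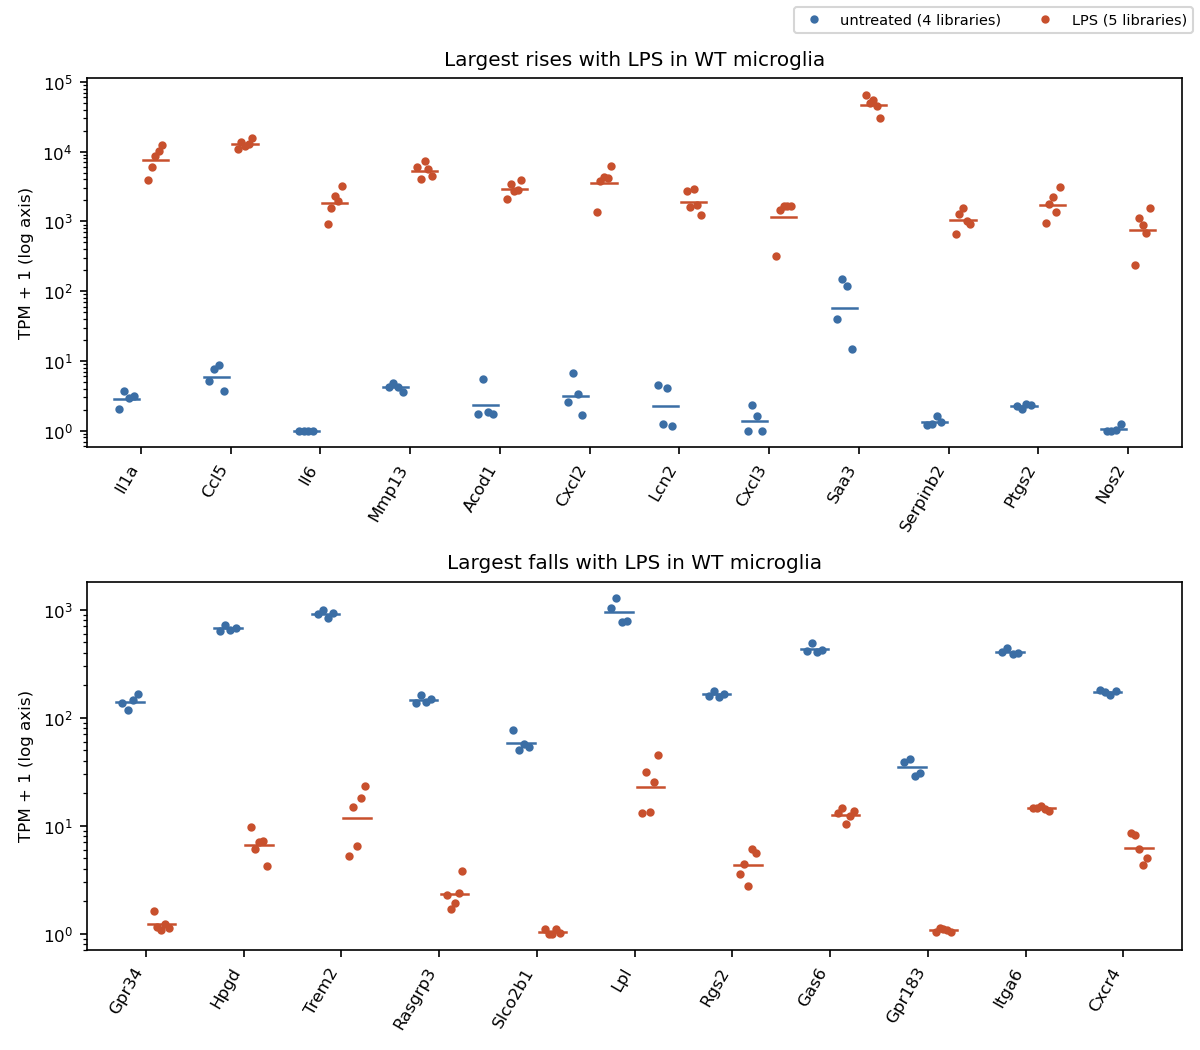
TPM (log axis) per library of 12 genes with the largest rises and 11 of those with the largest falls, with 4 untreated and 5 LPS libraries as points. The groups do not overlap for any of these genes, which was a condition of their choice.

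Interferon-stimulated genes encode antiviral proteins and are induced by type I interferon through its receptor and the factors STAT2 and IRF9, among others. All 31 measured members rose, with a median of 5.26, the highest of the gene lists, and a range of 1.43 to 7.79. The genes with the largest differences were Rsad2, Oasl1, Oas3, Irf7, Isg15 and Ifit1. Rsad2, which encodes the antiviral protein viperin, was 2.33, 6.65, 2.18 and 1.17 TPM in untreated replicates 1 to 4 and 389.5, 1185, 619, 578 and 2066 TPM in LPS replicates 1 to 5. LPS replicates 1 to 5 all lay above the untreated range (log2 difference 7.79 ± 0.54, adjusted p = 6.93e-16). Irf7, the transcription factor that amplifies interferon genes, was 7.43, 13.7, 9.14 and 4.13 TPM in untreated replicates 1 to 4 and 1341, 1685, 1310.03, 1417 and 1529 TPM in LPS replicates 1 to 5. The groups were again apart (log2 difference 7.34 ± 0.32, adjusted p = 2.00e-22). Isg15, a ubiquitin-like modifier, rose from 6.99 to 1204 TPM, Ifit1 from 3.21 to 616 TPM, Oasl1 from 0.246 to 264 TPM and Oas3, an activator of RNase L, from 0.542 to 246 TPM. Among the least changed members were Irf9 (1.43) and Stat2 (2.99). Together the list took 0.0419% ± 0.0102 (SD, n = 4) of the summed TPM untreated and 1.54% ± 0.280 (SD, n = 5) with LPS. The interferon-β gene itself, Ifnb1, did not reach the level for testing. Of 14 measured IRF and STAT genes 6 rose and 0 fell; besides those above, Irf1 rose by 1.27 ± 0.18 and Stat6 by 0.39 ± 0.09, and Stat3 was 0.29 ± 0.16 (adjusted p = 0.0951).

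The ISRE type motif was in 3.97% of all genes with a promoter, in 19.3% of those at least 4-fold higher and in 2.93% of those at least 4-fold lower. It was found in 16 of the 24 interferon-stimulated genes with a promoter, in 2 of 8 CXC and CX3C chemokines and in 0 of 11 genes of NF-kB subunits and inhibitors. The 3 matching genes with the largest differences are shown in the same way.
Cxcl10, chr5:92348890-92349139, minus strand: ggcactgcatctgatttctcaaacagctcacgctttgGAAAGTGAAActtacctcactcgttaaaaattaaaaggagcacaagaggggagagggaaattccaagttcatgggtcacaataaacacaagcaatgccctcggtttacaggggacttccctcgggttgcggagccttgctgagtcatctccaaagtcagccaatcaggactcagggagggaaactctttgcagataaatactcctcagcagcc
Rsad2, chr12:26456453-26456702, minus strand: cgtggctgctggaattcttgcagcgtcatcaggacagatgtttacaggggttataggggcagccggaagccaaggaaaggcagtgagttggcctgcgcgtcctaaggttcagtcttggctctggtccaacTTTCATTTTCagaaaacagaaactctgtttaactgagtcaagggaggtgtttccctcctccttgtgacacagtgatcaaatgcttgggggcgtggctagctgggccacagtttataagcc
Isg15, chr4:156200819-156201068, minus strand: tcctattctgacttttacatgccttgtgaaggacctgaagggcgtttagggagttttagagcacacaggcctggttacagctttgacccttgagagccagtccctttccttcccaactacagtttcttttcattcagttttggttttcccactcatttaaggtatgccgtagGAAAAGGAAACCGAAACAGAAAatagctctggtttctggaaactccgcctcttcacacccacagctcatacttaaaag
The Cxcl10 match spans bases -213 to -204, and the Rsad2 match lies at -120 to -111 on the strand opposite to the gene. Isg15 holds 3 overlapping matches between -78 and -57, printed as 1 run of capitals.

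Presentation on MHC class I, which shows peptides from inside the cell to CD8 T cells, rose as a group: 20 of 20 measured genes rose, with a median of 2.34. B2m, the invariant chain of the class I molecule, was 2466, 2845, 2449 and 2304 TPM in untreated replicates 1 to 4 and 11976, 11864, 11832, 11680.4 and 11709 TPM in LPS replicates 1 to 5. It moved from rank 18 to rank 7 by mean TPM, with the LPS libraries close together (B2m log2 difference 2.23 ± 0.13, adjusted p = 1.38e-18). H2-K1 rose from 434 to 4242 TPM, the peptide transporter gene Tap1 from 19.8 to 238 TPM, the immunoproteasome gene Psmb8 from 75.9 to 479.6 TPM and Nlrc5, the activator of class I genes, from 7.34 to 69.8 TPM. H2-Q6 and H2-Q7 were under 1 TPM in all untreated libraries and at means of 373 and 365 TPM with LPS; these genes, like H2-K1 and H2-D1, have near-identical copies, so the split of reads between them is uncertain. Of 10 measured genes of MHC class II, which shows peptides to CD4 T cells, 2 rose and 1 fell. The summed level of the list was 2766 ± 171 TPM untreated and 2061 ± 193 TPM with LPS. The class II genes named next made up little of that sum, which rests on other members of the list, such as Ctss and Ifi30 among those it holds. H2-Ab1 rose from 1.87 to 22.4 TPM and Cd74, the invariant chain, from 11.4 to 28.5 TPM, H2-Aa had 0.664 TPM with LPS (adjusted p = 0.134) and H2-DMa fell from 13.3 to 3.86 TPM. Ciita, the master activator of class II genes, had 0.0163 TPM untreated on average and was listed at 0 in all LPS libraries.

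Among 13 measured genes of costimulation and adhesion 11 rose and 1 fell. Cd40, the receptor that receives T cell help, was 0.685, 2.38, 0.281 and 0.485 TPM in untreated replicates 1 to 4 and 66.2, 109, 84.4, 65.1 and 121 TPM in LPS replicates 1 to 5. The LPS libraries all exceeded the untreated ones (Cd40 log2 difference 5.59 ± 0.32, adjusted p = 2.76e-18). Slamf7 rose from 1.39 to 496 TPM, Cd69 from 0.778 to 185 TPM, Cd80 from 1.51 to 16.5 TPM and Icam1, an adhesion molecule for leukocytes, from 26.7 to 112 TPM. Cd83 fell from 161 to 25.0 TPM (log2 difference -2.67 ± 0.23), and Pdcd1lg2, the PD-L2 gene, stayed at 0.114 TPM (adjusted p = 0.497).

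Of 18 other sensors of microbes measured, 13 rose and 4 fell. Clec4e, the gene of the receptor Mincle for mycobacterial glycolipids, was 1.48, 15.3, 2.07 and 2.93 TPM in untreated replicates 1 to 4 and 432, 806, 441, 664 and 725 TPM in LPS replicates 1 to 5. Untreated replicate 2 was the highest of its group, and all LPS libraries lay above it (Clec4e log2 difference 6.98 ± 0.36, adjusted p = 6.99e-20). Sensors of RNA in the cytoplasm rose: Ddx58, the RIG-I gene, from 13.0 to 224 TPM and Ifih1, the MDA5 gene, from 12.5 to 178 TPM. So did Nlrp3, the inflammasome sensor, from 19.4 to 221 TPM, Nod1 from 2.53 to 31.4 TPM and Nod2 from 1.13 to 11.8 TPM, and the Toll-like receptor genes Tlr1, by 2.64, and Tlr3, by 2.59. The genes that fell were the endosomal receptors of nucleic acids Tlr13, from 123 to 33.0 TPM, Tlr9, from 24.3 to 8.10 TPM, and Tlr8, from 72.8 to 26.2 TPM, and Clec7a, the gene of the β-glucan receptor Dectin-1, from 555 to 209 TPM. Tlr7 was 0.17 ± 0.13 (adjusted p = 0.205).

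Chemoattractant receptors changed in both directions, 6 of 13 up and 3 down. Fpr1, a receptor for formylated bacterial peptides, was 0.802, 4.04, 2.08 and 0.296 TPM in untreated replicates 1 to 4 and 1031, 954, 1092, 1061 and 1013 TPM in LPS replicates 1 to 5 (log2 difference 8.71 ± 0.23). Fpr2 rose from 2.24 to 396 TPM, Ccrl2 from 9.85 to 187 TPM and Ccr1 from 13.8 to 82.1 TPM. Cx3cr1, the receptor of neuronal fractalkine whose promoter drives the Cre of the HET and KO lines, was 838, 806, 688 and 711 TPM in untreated replicates 1 to 4 and 60.8, 25.3, 33.0, 35.0 and 22.0 TPM in LPS replicates 1 to 5. The groups did not overlap for Cx3cr1 (log2 difference -4.48 ± 0.22, adjusted p = 1.41e-20). Cxcr4, the receptor of Cxcl12, fell from 172 to 5.46 TPM (log2 difference -4.80 ± 0.23) and Ackr3, an atypical receptor of the same ligand, from 4.75 to 1.17 TPM.

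Of 26 cytokine and growth factor receptor genes 10 rose and 6 fell, against 13.8% and 27.3% of all genes. Il2rg, the common γ chain, rose from 10.2 to 174 TPM and Il15ra from 4.34 to 56.0 TPM, alongside Il15. Both receptors of TGF-β fell, Tgfbr1 from 147 to 18.3 TPM and Tgfbr2 from 201 to 34.3 TPM. Tgfbr1 was 134, 156, 141 and 159 TPM in untreated replicates 1 to 4 and 20.1, 19.0, 16.5, 17.7 and 18.2 TPM in LPS replicates 1 to 5 (log2 difference -2.94 ± 0.11, adjusted p = 8.93e-25), with no overlap. Il6st, the shared signalling chain gp130, and Il6ra, the interleukin-6 receptor, fell by 2.31 and 1.77 on the log2 scale. Csf1r, the receptor on which microglia depend, fell from 1228 to 466 TPM (log2 difference -1.40 ± 0.12). Ifngr1 was at -1.83 and fell, whereas Ifngr2 rose by 0.67; the products of both form the interferon-γ receptor. Il10ra (0.16 ± 0.09, adjusted p = 0.110) and Il1r1 (0.20 ± 0.17, adjusted p = 0.275) did not pass the test.

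Genes for nitric oxide, itaconate and oxidants rose in 12 of 15 cases and fell in 1. Nos2, the inducible nitric oxide synthase, was 0, 0, 0.0270 and 0.245 TPM in untreated replicates 1 to 4 and 238, 1107, 883, 674 and 1555 TPM in LPS replicates 1 to 5. All untreated libraries were under 1 TPM (Nos2 log2 difference 9.47 ± 0.43, adjusted p = 9.17e-22). Acod1, which makes itaconate from aconitate, was 0.712, 4.43, 0.873 and 0.709 TPM in untreated replicates 1 to 4 and 2091, 3388, 2736, 2833 and 3957 TPM in LPS replicates 1 to 5. Its lowest LPS library was far above the highest untreated one (Acod1 log2 difference 10.30 ± 0.34, adjusted p = 6.43e-26). Enzymes and carriers that supply nitric oxide synthesis rose with it: Slc7a2, an arginine carrier, from 4.38 to 682 TPM, Ass1, which rebuilds arginine from citrulline, from 2.37 to 137 TPM and Gch1, of the cofactor tetrahydrobiopterin, from 3.96 to 61.9 TPM. Arg1, the arginase that competes for the same substrate, rose from 0.202 to 77.5 TPM. Sod2, the mitochondrial superoxide dismutase, rose from 106 to 2334 TPM and Cybb, the catalytic subunit of the phagocyte NADPH oxidase, from 393 to 1615 TPM. Kynu, of tryptophan breakdown, was the member that fell, from 2.06 to 0.460 TPM.

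The prostaglandin and leukotriene genes changed in both directions, with 5 of 16 up and 7 down. Ptgs2, the inducible cyclooxygenase COX-2, was 1.27, 1.05, 1.39 and 1.36 TPM in untreated replicates 1 to 4 and 934, 1753, 2245, 1366 and 3083 TPM in LPS replicates 1 to 5 (log2 difference 9.58 ± 0.38). Ptges, the synthase of prostaglandin E2, was 0.848, 1.27, 0.607 and 0.374 TPM in untreated replicates 1 to 4 and 734, 756, 704, 848 and 768 TPM in LPS replicates 1 to 5 (log2 difference 8.77 ± 0.23). Pla2g4a, the phospholipase that frees arachidonic acid, rose from 20.7 to 98.0 TPM. Hpgd (chr8:56294552-56321046), the enzyme that inactivates prostaglandin E2, was 636, 725, 652 and 672 TPM in untreated replicates 1 to 4 and 8.76, 5.13, 6.07, 6.16 and 3.25 TPM in LPS replicates 1 to 5. It had the second largest fall of the named genes (log2 difference -6.66 ± 0.23, adjusted p = 1.59e-25). Ptgs1, the constitutive cyclooxygenase, fell from 40.0 to 2.55 TPM, Tbxas1, the thromboxane synthase, from 118 to 28.4 TPM, Ltc4s, the leukotriene C4 synthase, from 20.0 to 0.157 TPM and Alox5 from 6.14 to 1.10 TPM. The prostaglandin E2 receptors divided, Ptger2 rising from 1.48 to 9.37 TPM and Ptger4 falling from 19.4 to 2.89 TPM.

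Matrix proteases and their inhibitors rose in 11 of 16 cases and fell in 3, and together took 0.114% ± 0.0162 of the summed TPM untreated (SD, n = 4) and 0.797% ± 0.122 with LPS (SD, n = 5). Mmp13, a collagenase, was 3.27, 3.87, 3.24 and 2.59 TPM in untreated replicates 1 to 4 and 5914, 4007, 7272, 5627 and 4487 TPM in LPS replicates 1 to 5 (log2 difference 10.31 ± 0.33, adjusted p = 1.21e-26). Mmp8 rose from 0.289 to 106 TPM, Mmp9, a gelatinase, from 1.31 to 74.7 TPM, Mmp14 from 19.0 to 237 TPM and Mmp12 from 99.7 to 1042 TPM. Timp2 and Timp3, inhibitors of these proteases, fell from 398 to 50.3 TPM and from 87.4 to 32.5 TPM, while Timp1 rose from 3.88 to 54.2 TPM. Plau, the urokinase, fell from 152 to 5.75 TPM (log2 difference -4.50 ± 0.25), and its receptor Plaur rose from 43.6 to 164 TPM. Serpinb2, a urokinase inhibitor outside the list, was 0.204, 0.268, 0.620 and 0.329 TPM in untreated replicates 1 to 4 and 648, 1267, 1563, 995 and 902 TPM in LPS replicates 1 to 5 (adjusted p = 2.28e-28).

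In the complement list 8 of 15 rose and 5 fell. The 3 C1q genes, which start the classical pathway and tag synapses, fell: C1qa from 2382 to 669 TPM, C1qb from 2183 to 865 TPM and C1qc from 2498 to 483 TPM. Genes of the alternative pathway rose: C3 from 7.55 to 253 TPM, Cfp, properdin, from 48.4 to 657 TPM and Cfb, factor B, which was 0, 0.960, 0.314 and 0 TPM in untreated replicates 1 to 4 and 344, 508, 332, 447 and 279 TPM in LPS replicates 1 to 5. All untreated libraries were under 1 TPM for Cfb (log2 difference 8.21 ± 0.22, adjusted p = 4.91e-29).

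Receptors of phagocytosis changed in both directions, 12 of 27 up and 11 down. Marco, a scavenger receptor for bacteria, was 1.27, 3.27, 2.69 and 0.414 TPM in untreated replicates 1 to 4 and 439.5, 723, 428, 624 and 488 TPM in LPS replicates 1 to 5 (log2 difference 7.64 ± 0.35, adjusted p = 1.37e-21). Trem1, which amplifies inflammatory signals, rose from 0.226 to 52.6 TPM, Msr1 from 223 to 1469.8 TPM and the high-affinity Fc receptor Fcgr1 from 84.4 to 573 TPM. Genes of the uptake of apoptotic cells fell: Gas6, the bridge to the kinase MERTK, from 431 to 11.8 TPM, Pros1, a related bridge, from 72.4 to 8.41 TPM, Mertk from 71.7 to 22.8 TPM and Itgb5 from 499.9 to 41.4 TPM. Gas6 was 409, 492, 404 and 418 TPM in untreated replicates 1 to 4 and 12.1, 13.7, 9.27, 11.2 and 12.6 TPM in LPS replicates 1 to 5 (log2 difference -5.09 ± 0.15, adjusted p = 5.70e-28), with no overlap. Mrc1, the mannose receptor, also used as a marker of border macrophages, fell from 31.1 to 1.17 TPM. Another marker of those cells, Pf4, was 0.14 ± 0.35 (adjusted p = 0.737). The 8 border macrophage markers, of which 5 reached the level for testing, summed to 357 to 495 TPM untreated and 463 to 553 TPM with LPS.

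The genes that mark homeostatic microglia fell: 18 of 19 measured members fell and 0 rose, with a median of -2.35 on the TPM scale and -1.80 after median-of-ratios scaling. Gpr34 (Entrez 23890, chrX:13622650-13640859), a receptor of lysophosphatidylserine, was 137, 117, 144 and 163 TPM in untreated replicates 1 to 4 and 0.634, 0.154, 0.0880, 0.222 and 0.137 TPM in LPS replicates 1 to 5. This was the largest fall of the named genes, and all LPS libraries were under 1 TPM (Gpr34 log2 difference -6.83 ± 0.18, adjusted p = 1.71e-29). Trem2 (Entrez 83433, chr17:48346401-48352276), a lipid receptor that sustains phagocytosis, was 905, 985, 827 and 923 TPM in untreated replicates 1 to 4 and 4.30, 13.9, 5.50, 17.0 and 22.5 TPM in LPS replicates 1 to 5. The highest LPS library was far below the lowest untreated library (Trem2 log2 difference -6.29 ± 0.27, adjusted p = 1.47e-22), and its signalling partner Tyrobp fell from 2308 to 853 TPM. Fcrls fell from 729 to 27.6 TPM, Olfml3 from 173 to 8.65 TPM and Rnase4 from 271 to 11.5 TPM. P2ry12 and Tmem119, which are often used to identify microglia, were low in the untreated cultures already, at 36.4 ± 6.16 and 14.6 ± 1.97 TPM, and fell to 3.30 ± 0.913 and 2.12 ± 0.786 TPM. Sparc was the member not called under all scalings (-1.16 ± 0.34). The list took 0.757% ± 0.0322 (SD, n = 4) of the summed TPM untreated and 0.108% ± 0.00914 (SD, n = 5) with LPS.

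Transcription factors of the lineage divided as well, with 5 of 18 up and 7 down. Cebpa, a factor of myeloid differentiation, was 294, 271, 287 and 284 TPM in untreated replicates 1 to 4 and 10.8, 13.5, 12.2, 12.2 and 10.6 TPM in LPS replicates 1 to 5 and fell without overlap (log2 difference -4.47 ± 0.12, adjusted p = 2.87e-29). Mef2c fell from 157 to 11.9 TPM, Bhlhe41 from 65.5 to 9.78 TPM and Sall1, which is specific to microglia among macrophages, from 12.5 to 3.12 TPM. Spi1, the PU.1 gene and the central factor of the lineage, rose from 231 to 334 TPM (log2 difference 0.53 ± 0.11), and Cebpb, a factor of inflammatory genes, from 65.5 to 385 TPM (log2 difference 2.55 ± 0.12).

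Purinergic signalling lets microglia sense ATP from damaged cells and adenosine from its breakdown. The list had 6 of 13 genes up and 4 down. The ADP receptors P2ry12 and P2ry13 fell, the latter from 26.9 to 5.39 TPM, and so did Entpd1, the ectoenzyme CD39 that degrades ATP, from 74.8 to 3.57 TPM and P2rx7, the ATP-gated channel upstream of the inflammasome, from 40.1 to 12.0 TPM. The adenosine receptors Adora2a and Adora2b rose. Adora2a was 0.0420, 0, 0.119 and 0.368 TPM in untreated replicates 1 to 4 and 32.0, 32.0, 27.0, 34.5 and 25.4 TPM in LPS replicates 1 to 5 (log2 difference 4.79 ± 0.13). Adora2b was 0.264, 0.450, 0.0600 and 0.0810 TPM in untreated replicates 1 to 4 and 29.2, 35.2, 66.6, 60.5 and 67.3 TPM in LPS replicates 1 to 5 (log2 difference 5.37 ± 0.28). Both were under 1 TPM in every untreated library. Of 17 measured ion channel genes 6 rose and 5 fell. Kcnj2, the inward rectifier Kir2.1, fell from 34.5 to 5.00 TPM and Kcnk13, the THIK-1 channel that sets the resting potential of microglia, from 18.3 to 3.90 TPM, while Kcna3, the Kv1.3 channel, rose from 7.65 to 18.0 TPM.

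Central metabolism changed by pathway. Of 22 measured genes of glycolysis and lactate export 20 rose and 0 fell, with a median of 1.61. Slc2a1, the glucose carrier GLUT1, was 23.7, 25.9, 21.0 and 23.0 TPM in untreated replicates 1 to 4 and 178, 268, 291, 212 and 324 TPM in LPS replicates 1 to 5 (log2 difference 3.36 ± 0.15, adjusted p = 5.59e-22). Slc16a3, the lactate exporter MCT4, rose from 20.5 to 292 TPM, Pfkfb3, which drives phosphofructokinase, from 34.8 to 307 TPM, Tpi1 from 131 to 929.7 TPM, Pgk1 from 125 to 659.6 TPM and Ldha from 304 to 1334 TPM. Hif1a, the factor that controls many of these genes, rose from 94.1 to 347 TPM. In the tricarboxylic acid cycle list 6 of 17 genes fell and 0 rose, against 27.3% and 13.8% of all genes. The calls depended on the scale, with 0 higher and 14 lower on the TPM scale and 6 and 6 after median-of-ratios scaling. Those that fell included Idh1, from 228 to 42.8 TPM, Idh2, from 74.3 to 21.5 TPM, Suclg2, from 24.9 to 6.88 TPM, and Mdh1, from 205 to 68.7 TPM. Idh1 and Mdh1 encode the cytosolic forms of their enzymes, so not all falls of the list belong to the mitochondrial cycle. The nuclear genes of oxidative phosphorylation changed direction with the scale: on the TPM scale 0 of 21 were higher and 17 lower, and after median-of-ratios scaling 11 were higher and 3 lower. The members that fell under all 3 scalings were Ndufa1 (-1.02), Ndufa4 (-1.06) and Ndufs1, which went from 59.4 to 29.5 TPM.

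The cholesterol synthesis and uptake genes fell in 20 of 21 cases, with a median of -2.16 on the TPM scale and -1.56 after median-of-ratios scaling. Hmgcs1, an early enzyme of the pathway, was 409.7, 185, 382 and 452 TPM in untreated replicates 1 to 4 and 46.0, 41.2, 57.8, 75.0 and 49.9 TPM in LPS replicates 1 to 5 (log2 difference -2.66 ± 0.29). The groups did not overlap. Dhcr7 fell from 66.6 to 9.40 TPM, Idi1 from 52.9 to 7.05 TPM, Fdps from 129 to 21.0 TPM, Cyp51 from 75.0 to 12.2 TPM and Sqle from 77.5 to 13.1 TPM. The regulator Srebf2 fell from 113 to 36.8 TPM. The oligodendrocyte marker sums, given above, were lower in the LPS libraries too, and untreated replicate 2, with the lowest sum of its group, was also the lowest untreated library for Hmgcs1; the part of oligodendrocytes in the falls was not tested.

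Genes of lipid handling and of the disease-associated microglial state included 4 of 19 that rose and 7 that fell. Apoe, the lipoprotein that was the most abundant transcript untreated outside the mitochondrial genome, was 61370.4, 63918, 59202 and 54952 TPM in untreated replicates 1 to 4 and 19128, 18092, 16389.7, 16089 and 16562 TPM in LPS replicates 1 to 5 (log2 difference -1.80 ± 0.09). Lpl, which frees fatty acids from lipoproteins, fell from 966 to 24.6 TPM (log2 difference -5.37 ± 0.33), Gpnmb from 1725 to 324 TPM and Cd9 from 1933 to 502 TPM. Ch25h, which makes the antiviral oxysterol 25-hydroxycholesterol, was 37.7, 106, 41.0 and 61.2 TPM in untreated replicates 1 to 4 and 1394, 1167, 1371, 1315 and 1421 TPM in LPS replicates 1 to 5 (log2 difference 4.54 ± 0.29). Cst7, an inhibitor of cathepsins, rose from 58.2 to 157 TPM. Spp1 was at -1.35 ± 0.33 on the TPM scale and was not called after median-of-ratios scaling. In the lysosome list 2 of 21 rose and 10 fell. Ctsd, a main protease of the lysosome, fell from 11982 to 2749 TPM, Hexa from 847 to 149.9 TPM, Lipa, the acid lipase, from 459.8 to 116 TPM and Tfeb, the factor that controls lysosomal genes, from 23.9 to 4.87 TPM. The members that rose were Ctsz, from 854 to 1650.2 TPM, and Npc2, from 357 to 597 TPM.

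Iron and acute phase genes held the most abundant transcripts of the LPS libraries outside the mitochondrial genome. Fth1 (Entrez 14319, chr19:9980600-9985111), the heavy chain of the iron store ferritin, was 7124, 9920.2, 8194 and 8272 TPM in untreated replicates 1 to 4 and 54475, 65418, 63629.7, 64031 and 70562 TPM in LPS replicates 1 to 5. It moved from rank 6 to rank 1 (Fth1 log2 difference 2.93 ± 0.16, adjusted p = 1.89e-19); Fth1 has processed pseudogenes, so its reads may be split. Saa3 (Entrez 20210, chr7:46711998-46719615), a serum amyloid protein made by macrophages, was 39.2, 147, 118 and 14.0 TPM in untreated replicates 1 to 4 and 64038, 49586, 54736, 44581 and 30115 TPM in LPS replicates 1 to 5. It moved from rank 2070 to rank 2, and untreated replicate 2 was the highest of its group (Saa3 log2 difference 9.69 ± 0.46, adjusted p = 6.05e-21). Lcn2, which binds bacterial siderophores and so withholds iron, rose from 1.77 to 2024 TPM (log2 difference 9.72 ± 0.35). Slc40a1, the iron exporter ferroportin, fell from 47.8 to 2.70 TPM (log2 difference -3.80 ± 0.40), while Tfrc, the transferrin receptor for iron uptake, rose from 24.5 to 52.4 TPM and Hmox1, which frees iron from haem, from 288 to 1640.1 TPM. In the list 10 of 15 rose and 1 fell, and its summed level went from 17684 ± 2117 TPM (SD, n = 4) to 123966 ± 5739 TPM (SD, n = 5). Hepcidin's gene Hamp was 0.40 ± 0.33 (adjusted p = 0.276) and Mt2, a metallothionein, 0.83 ± 0.43 (adjusted p = 0.0767).

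Stress genes rose more often than they fell. Of 13 measured targets of NRF2, the factor of the oxidative stress response, 9 rose and 0 fell, among them Prdx1, a peroxidase, from 654 to 3713 TPM, and Gsr, which restores glutathione, from 30.1 to 259 TPM. The amino acid and integrated stress response list had 9 of 16 up and 1 down. Slc7a11, the cystine importer that supplies glutathione synthesis and releases glutamate, was 1.12, 1.86, 1.05 and 0.893 TPM in untreated replicates 1 to 4 and 85.2, 184, 177, 149 and 218 TPM in LPS replicates 1 to 5. The groups did not overlap (Slc7a11 log2 difference 6.15 ± 0.31, adjusted p = 3.00e-20). Mthfd2, of mitochondrial folate metabolism, rose from 10.3 to 89.9 TPM and Ddit3, the CHOP gene, from 19.5 to 115 TPM, and Psat1, of serine synthesis, fell from 116 to 36.4 TPM. Of 12 endoplasmic reticulum chaperone and XBP1 target genes 11 rose and 0 fell, led by Hspa5, the BiP gene, from 512 to 1197 TPM.

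Among 24 genes of cell death and inflammasomes 16 rose and 3 fell. Mlkl, the executor of necroptosis, was 0.577, 1.07, 0.673 and 0.513 TPM in untreated replicates 1 to 4 and 60.5, 93.2, 72.0, 78.8 and 106 TPM in LPS replicates 1 to 5 (log2 difference 5.59 ± 0.21). Casp4, the mouse caspase-11 that binds LPS inside the cell, was 8.21, 10.2, 8.92 and 7.62 TPM in untreated replicates 1 to 4 and 114, 109.6, 100.5, 99.6 and 145 TPM in LPS replicates 1 to 5 (log2 difference 3.55 ± 0.21). Fas, a death receptor, rose from 2.34 to 57.5 TPM and Casp1 from 41.4 to 173 TPM. Genes of proteins that hold death back rose too, Cflar from 45.2 to 228 TPM, Birc3 from 15.8 to 146 TPM and Bcl2a1b from 334 to 725 TPM, whose reads may be shared with near-identical copies. Bcl2l11, the BIM gene, fell from 52.4 to 9.03 TPM and Pycard, the inflammasome adaptor ASC, from 34.3 to 12.6 TPM. Ripk1 was 0.07 ± 0.08 (adjusted p = 0.437).

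Genes of the cell cycle fell in 21 of 30 cases. Mki67, the proliferation marker, was 21.1, 31.0, 16.1 and 16.7 TPM in untreated replicates 1 to 4 and 4.49, 4.85, 3.98, 4.99 and 3.17 TPM in LPS replicates 1 to 5 (log2 difference -2.03 ± 0.34), with every LPS library lower. Cenpa fell from 32.1 to 3.68 TPM, Rrm2, for the supply of deoxynucleotides, from 20.4 to 2.48 TPM, Tk1 from 7.82 to 0.516 TPM and Ccna2 from 17.7 to 2.93 TPM. The member that rose was Cdkn1a, the cell cycle inhibitor p21, from 106 to 426 TPM (log2 difference 1.94 ± 0.21). Tyms (0.37 ± 0.24, adjusted p = 0.164) and E2f1 (0.14 ± 0.19, adjusted p = 0.516) did not pass the test. Of 16 growth and trophic factor genes 4 rose and 6 fell. Igf1, a microglial growth factor for neurons and oligodendrocytes, was 572, 754, 622 and 650.5 TPM in untreated replicates 1 to 4 and 28.5, 71.7, 44.0, 101 and 141 TPM in LPS replicates 1 to 5. The LPS libraries were all lower (Igf1 log2 difference -3.26 ± 0.28, adjusted p = 3.66e-13). Hgf fell from 23.6 to 1.27 TPM, Igfbp4 from 121 to 22.6 TPM and Vegfb from 59.6 to 11.7 TPM, and Vegfa rose from 9.77 to 25.4 TPM.

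The transcript pool itself was redistributed. The 2194 genes that rose took 11.6% ± 0.568 of the summed TPM untreated (SD, n = 4) and 50.0% ± 2.39 with LPS (SD, n = 5); these genes were chosen by their rise, so this is a description. The 49 detected genes of the cytokine and chemokine lists took 0.0945, 0.113, 0.0837 and 0.0860% in untreated replicates 1 to 4 and 4.08, 5.60, 6.40, 6.68 and 8.90% in LPS replicates 1 to 5. All LPS libraries were above all untreated libraries. The mean share was 0.0942% ± 0.0132 untreated and 6.33% ± 1.76 with LPS, a difference of 6.24 percentage points; the lists were chosen with earlier results of these data known, so no test is given. Transcripts of the mitochondrial genome, which encodes subunits of the respiratory chain, took 3.66, 4.12, 4.26 and 5.33% in untreated replicates 1 to 4 and 2.26, 2.38, 2.45, 2.52 and 2.88% in LPS replicates 1 to 5. The LPS libraries were lower without overlap, with means of 4.34% ± 0.707 and 2.50% ± 0.236, a difference of -1.85 percentage points (exact permutation test, two-sided, p = 0.00794, the smallest that 4 and 5 libraries can give). These are shares, so the rise of other transcripts lowers them. The test cannot separate this effect from a fall of the mitochondrial transcripts themselves.

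The most abundant genes outside the mitochondrial genome changed places. Untreated, the highest means after Apoe were those of CT010467.1, a gene with a clone name, and of the lysozyme gene Lyz2, at 26816 ± 21056 and 20565 ± 4987 TPM. With LPS, Fth1, Saa3, Apoe and Il1b came first, CT010467.1 had 13195 ± 5018 TPM and Ccl5, B2m, Tmsb4x, Ccl3 and Lyz2 followed. The value of CT010467.1 ran from 7679 to 53129.8 TPM among the untreated libraries. Eef1a1, a translation elongation factor, went from 10993 to 5445 TPM (rank 5 to 15), and Ctsb, a lysosomal protease, from 7186 to 2730.4 TPM (rank 9 to 23).

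**Figure D4:**
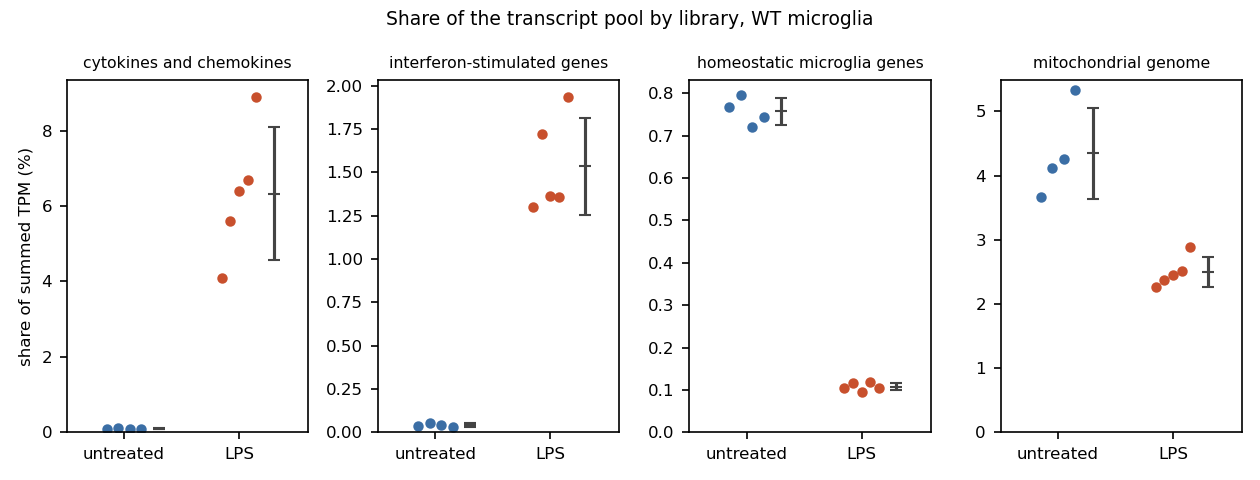
Percent of the summed TPM taken by 4 sets of transcripts in each library, with the mean and SD of the 4 untreated and 5 LPS libraries. The cytokine and chemokine share is 0.0942% ± 0.0132 untreated and 6.33% ± 1.76 with LPS, and the mitochondrial genome share 4.34% ± 0.707 and 2.50% ± 0.236.

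Some genes were near 0 in a whole group. By a rule of under 1 TPM in all libraries of one group and at least 5 TPM in all of the other, 85 genes were above these limits with LPS alone and 42 untreated alone, and 10 of the former were listed at 0 in all 4 untreated libraries. The 6 with the highest LPS means were Il6, Serpinb2, Nos2, Cfb, H2-Q6 and H2-Q7, with values given above. The 6 with the highest untreated means were Gpr34, Slco2b1, Cd300a, Gpr183, Rtn4rl1 and Tpbgl. Slco2b1, a carrier of organic anions, had 76.1, 49.1, 56.4 and 52.2 TPM in untreated replicates 1 to 4 and 0.0990, 0, 0, 0.101 and 0.0250 TPM with LPS. Gpr183, a receptor of oxysterols made from the product of Ch25h, had 38.0, 40.3, 28.1 and 30.0 TPM untreated and 0.0400, 0.119, 0.0960, 0.0820 and 0.0400 TPM with LPS. Cd300a, an inhibitory lipid receptor, went from 42.2 to 0.671 TPM, Rtn4rl1 from 28.7 to 0.788 TPM and Tpbgl from 24.3 to 0.308 TPM. Among the other largest falls, Rasgrp3, an activator of Ras, went from 146 to 1.41 TPM, Rgs2, a regulator of G proteins, from 163 to 3.48 TPM, and Itga6, an integrin chain, from 407 to 13.5 TPM.

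The extent of the response differed among the 5 LPS libraries for some genes and lists and not for others. The summed MHC class I list ran only from 23930 to 25495 TPM over these libraries, with LPS replicate 1 the highest. Saa3 was also highest in LPS replicate 1 and was lowest in LPS replicate 5. Among genes called higher with a mean of at least 5 TPM, the largest SDs of log2(TPM + 1) over the LPS libraries belonged to Inhba, Cstdc4, Cxcl1, Cd300lf, Vgf and Hspa1a. Inhba, which encodes activin A, had 1.55, 11.0, 12.1, 15.1 and 58.8 TPM in LPS replicates 1 to 5 and 0.959, 0.108, 0.630 and 0.496 TPM in untreated replicates 1 to 4. Vgf, a secreted neuropeptide precursor, had 35.9, 16.2, 9.56, 5.31 and 2.56 TPM with LPS, and Hspa1a, a heat shock protein, 7.99, 21.0, 23.7, 9.35 and 81.6 TPM. The values of Cd300lf were 4.20, 19.1, 9.08, 25.3 and 56.1 TPM and those of Cstdc4, a stefin with near-identical copies, 18.8, 85.0, 225, 167 and 313 TPM. For Cxcl1 and Inhba LPS replicate 1 was the lowest. LPS replicate 1 also had the lowest cytokine and chemokine share and the highest oligodendrocyte marker sum of the LPS libraries, and LPS replicate 5 the highest share and the lowest sum. The summed astrocyte markers were 116, 85.5, 89.1, 106 and 59.3 TPM and the neuronal markers 128, 66.8, 93.0, 93.9 and 46.9 TPM in LPS replicates 1 to 5. With 5 libraries no correlation is given, and the part of the other cells in this spread was not tested.

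**Figure D5:**
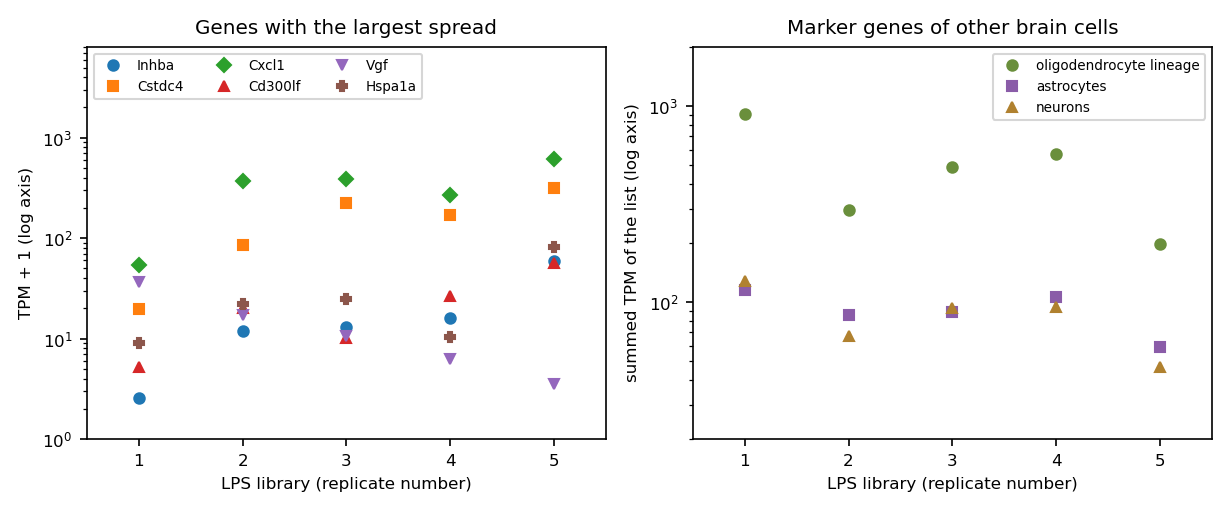
TPM per LPS library (replicates 1 to 5, whose numbers are only names) of the 6 rising genes with the largest spread, beside the summed TPM of oligodendrocyte, astrocyte and neuronal markers. LPS replicate 5 has the lowest marker sums, and replicate 1 the highest oligodendrocyte sum.

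The wild-type response was set against that of the other genotypes by the difference of responses (LPS minus untreated in one genotype, minus the same in WT), which uses the same WT libraries in both differences. For HET, which carries Cre and 1 floxed Tbk1 copy, limma called 0 genes (0%), with 604 genes (3.80%) at an unadjusted p under 0.05 and a smallest adjusted p of 0.746. The median SE of this difference was 0.23 on the log2 scale, so differences that are small beside it could not be detected. For Il6 the difference from HET was 0.21 ± 0.51, for Rsad2 -0.63 ± 0.74 and for Trem2 0.04 ± 0.37. For KO, which carries Cre and 2 floxed copies, 1489 genes (9.36%) had a response called above that of WT and 1118 (7.03%) one called below it, and after median-of-ratios scaling the split was 1142 and 1654. Genes whose rise was smaller in KO included Ifit1bl1 (-6.13 ± 0.63), Slfn4 (-5.84 ± 0.47), H2-Q6 (-5.63 ± 0.38) and Ccl7 (-5.58 ± 0.67), each KO minus WT. Among genes described above, Cxcl10 had -4.66 ± 0.77 (adjusted p = 2.02e-05), Rsad2 -4.33 ± 0.74 (adjusted p = 3.61e-05) and Il6 -1.78 ± 0.51 (adjusted p = 0.0122). In the other direction stood Hp, haptoglobin, at 4.36 ± 0.48, Acp5 at 3.49 ± 0.41, Fn1, fibronectin, at 3.46 ± 0.46 and Itgax at 3.37 ± 0.60, and Trem2 differed by 2.64 ± 0.37 (adjusted p = 1.40e-06). WT cultures lacked Cre, and HET cultures carried it as KO cultures did. The HET minus WT differences of the same genes, none of them called, were -1.14 ± 0.63 for Ifit1bl1, -0.69 ± 0.47 for Slfn4, -0.71 ± 0.38 for H2-Q6 and -0.76 ± 0.67 for Ccl7. For Hp, Acp5, Fn1 and Itgax they were 0.65 ± 0.48, 1.01 ± 0.41, 0.89 ± 0.46 and 0.83 ± 0.60.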

How the data were processed

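RNA sequencing libraries of untreated and LPS-treated wild-type microglia were compared. The authors deposited TPM per gene (32070 genes, 44 untreated, LPS and interleukin-4 libraries of 3 genotypes in 9 groups); a separate poly(I:C) table was not used here. Per the labels' protocols, 300 ng of RNA went into mRNA libraries. FastQC, Trimmomatic, DRAGEN, Picard and the build mm10 are listed, without versions, per the submitters' processing notes. The sources used here do not give the strand setting or how multiply mapped reads were treated: overlapping and near-identical genes are uncertain. TPM keeps no read depth, so the precision rests on the replicates, whose separate origin the design text states.

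The 15908 genes that reached 1 TPM in 4 or more libraries were tested as log2(TPM + 1) with limma, version 3.58.1 (lmFit, eBayes with a trend; R, version 4.3.3), with 1 mean per group and a spread shared by all groups. A gene was called at a Benjamini-Hochberg adjusted p under 0.05. The fit was repeated after median-of-ratios scaling and quantile normalization of all 44 libraries, and the procedure was tested on simulated data. Transcript shares were compared by an exact two-sided permutation test. Other alternatives are in the closing section. Genes were named by size of difference among genes called under all 3 scalings without overlap (12 each way), by list (the largest members and some that were not called), by mean level, by spread among LPS libraries and by the difference from KO, and not every gene under this rule is printed. Members and lists were chosen with earlier results of these data known, so list counts and medians carry no test. Promoters came from RefSeq (GRCm38.p6).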

Additional observations from a re-analysis of the deposited data

Results flagged for a closer look

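Dixon's criterion at 95% was applied to 640 groups of 4 or 5 libraries (each named gene and marker sum in each treatment). Chance gives about 1 in 20 for normally distributed values, which is only a rough guide for TPM. A group with 1 value above 0 and all others at 0 always meets the criterion, and a group at 0 throughout never does. In 60 groups 1 library was far from the others. Untreated replicate 2 stood apart in 20, LPS replicate 5 in 12 and LPS replicate 1 in 11 of these. Untreated replicate 1 was far from its group for Cd300lf (2.27 TPM), Cfp (41.7 TPM), Fosl1 (1.03 TPM), Il12a (0.0950 TPM) and Il19 (0.188 TPM). For Rtn4rl1 (30.4 TPM) and Vgf (6.02 TPM) the value of untreated replicate 1 was also apart. Untreated replicate 2 was far from its group for Acod1 (4.43 TPM), Ccl7 (1.75 TPM), Ciita (0.0650 TPM), Clec4e (15.3 TPM) and Cxcl9 (0.342 TPM). For Fpr2 (6.83 TPM), Gas6 (492 TPM), H2-Aa (0.191 TPM), H2-D1 (509 TPM) and Hamp (0.389 TPM) the value of untreated replicate 2 was also apart. Values of Ifngr2 (122 TPM), Ikbke (39.5 TPM), Lipa (538 TPM), Mmp14 (39.9 TPM) and Ndufa4 (266 TPM) in untreated replicate 2 stood apart too. Pdcd1lg2 (0.126 TPM), Tbk1 (53.8 TPM), the summed markers of astrocytes (189 TPM), the summed markers of vascular and stromal cells (5.58 TPM) and the summed markers of border macrophages (495 TPM) in untreated replicate 2 were further such values. Untreated replicate 3 was far from its group for Cstdc4 (0.903 TPM), Olfml3 (184 TPM), Tfeb (26.5 TPM) and Trem1 (0.387 TPM). Untreated replicate 4 was far from its group for Ccl17 (0.347 TPM), Cxcl1 (0 TPM), Cxcl11 (0.0980 TPM) and Nos2 (0.245 TPM). LPS replicate 1 was far from its group for Cxcl3 (317 TPM), Gpr34 (0.634 TPM), Il33 (8.19 TPM), Olfml3 (14.7 TPM) and Pros1 (12.9 TPM). For Ptger4 (5.13 TPM), Pycard (19.2 TPM), Rela (87.9 TPM), Sall1 (5.11 TPM) and Tlr1 (179.9 TPM) the value of LPS replicate 1 was also apart. Values of Tlr9 (12.9 TPM) in LPS replicate 1 stood apart too. LPS replicate 4 was far from its group for Il23a (0.333 TPM) and Rnase4 (17.0 TPM). LPS replicate 5 was far from its group for Casp1 (256 TPM), Ccl12 (1029 TPM), Ccl2 (5933 TPM), Ccl7 (1051 TPM) and Entpd1 (5.49 TPM). For Gsr (181 TPM), Hamp (1.96 TPM), Hspa1a (81.6 TPM), Ifit1 (839 TPM) and Il1rn (2347 TPM) the value of LPS replicate 5 was also apart. Values of Inhba (58.8 TPM) and Spp1 (4819.6 TPM) in LPS replicate 5 stood apart too. Several of these values are under 1 TPM.

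The response to LPS differed between KO and WT by limma's test of the difference of responses, with 1489 genes above and 1118 below WT. Genes with a response above that of WT included Hp (4.36), Acp5 (3.49), Fn1 (3.46) and Itgax (3.37), and genes with a response below it Ifit1bl1 (-6.13), Slfn4 (-5.84), H2-Q6 (-5.63) and Ccl7 (-5.58), as KO minus WT on the log2 scale.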

How the results depend on the processing

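Scaling had the largest effect. Median-of-ratios scaling called 5024 genes higher and 5139 lower with LPS, and quantile normalization called 4034 and 5750, against 2210 and 9854 on the TPM scale. Under the other alternatives (a pseudocount of 0.1, no filter, a filter at 5 TPM, a fit of the 9 wild-type libraries alone and the replicate block) both counts stayed within 1.5 times. Leaving out 1 wild-type library gave 2077 to 2192 genes higher and 9298 to 9935 lower. Of the log2 differences of named genes, these changed sign and were called on at least 1 of the scales compared: Chuk to 0.39 under median-of-ratios scaling and 0.11 under quantile normalization, Irak4 to 0.20 and 0.00605, Traf6 to 0.19 and 0.0931, and, with median-of-ratios scaling, Tab2 to 0.17 and Rela, which is not called on the TPM scale, to 0.66 (quantile normalization gave 0.14, not called). These scalings move the median of all genes by construction. Over 306 named genes and 17 alternatives, 5129 of 5196 values kept their direction and their side of the threshold, 17 lost the call and 42 gained it. Leaving out 1 library cost 3 genes their call: Cd180 without untreated replicate 2 (-0.52), Chuk without untreated replicate 4 (-0.19) or LPS replicate 5 (-0.21), and Tgfb1 without untreated replicate 3 (0.22). The medians of 4 of 44 lists changed sign under median-of-ratios scaling and of 2 under quantile normalization. For the difference of responses between HET and WT the count was 0 under all alternatives but no filter, which gave 1 gene, and 0 without any 1 library. For KO and WT it was 2607 in all, 2221 to 2919 without 1 library, and 1142 above and 1654 below WT with median-of-ratios scaling.

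The replicate numbers do not pair the cultures by any label. Deviations from the means of replicates 1 to 4 of each group correlated across genes at 0.189 on average between untreated and LPS libraries of the same number (lowest 0.0943, highest 0.342). Between different numbers the average was -0.0625, which follows from centring on the same libraries and is no separate evidence. Each of the 8 libraries correlated best with its own number, a hint from the data only. With the replicate block over 44 libraries 2326 genes were higher and 9924 lower, and with the block over pairs 1 to 4 of the wild type 2286 and 9837. Vegfa lost its call with the block over pairs 1 to 4 (1.03), and no named gene lost it with the block over 44 libraries. For KO minus WT the replicate block gave 3579 genes, 2098 above and 1481 below, and for HET minus WT 0. With the block of 4 pairs the cytokine and chemokine share differed by 5.59 and the mitochondrial genome share by -1.95 percentage points, and 4 pairs cannot give a sign-flip p under 0.125. Without 1 library these shares differed by 5.59 to 6.80 and by -2.08 to -1.52 percentage points. TPM keeps no depth, so no counting error could be given, and values near 0 are the least certain.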
